A study of Mus musculus with 16 samples.

Results

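The respiratory chain genes described here were the 96 genes whose symbols in the authors' normalized table match the naming of the 5 complexes of oxidative phosphorylation, out of 23380 genes in that table. Of 109 matching symbols, 13 were left out because the table does not call them protein coding. Of the 96, 12 were mitochondrially encoded and 84 nuclear encoded. By symbol, the nuclear encoded genes comprised 37 of complex I (7 core and 30 accessory subunits), 4 of complex II, 8 of complex III, 18 of complex IV and 17 of complex V. Ndufa4 and its relative Ndufa4l2 stand among the accessory subunits of complex I by symbol only, although Ndufa4 is known as a subunit of complex IV. One of the complex IV genes, Cox5b-ps, is protein coding in the authors' table and bears the name of a pseudogene. In all, 91 of the 96 had enough counts to be tested, 10 mitochondrially and 81 nuclear encoded. The 5 that did not were mt-Atp8, mt-Nd3, Cox6a2, Cox7b2 and Cox8b.

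RNA was sequenced from epithelium and mesenchyme of the parotid and the submandibular salivary gland of mouse embryos at embryonic day 13. All 16 libraries came from wild type animals of the outbred strain ICR, with 4 libraries for each layer of each gland. The labels call them independent biological replicates and do not say how many embryos were pooled in each. In the labels' sample numbers the parotid and the submandibular libraries form separate runs. What these numbers stand for is not stated. A gland difference therefore cannot be told apart from any difference that goes with them. The labels' protocol describes glands taken at that age, and the series text also mentions culture of such glands without saying which libraries it concerns.

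The respiratory chain sits in the inner mitochondrial membrane. Complexes I and II pass electrons from NADH and succinate to ubiquinone, complex III hands them to cytochrome c, complex IV passes them to oxygen, and complex V, the ATP synthase, makes ATP from the proton gradient that complexes I, III and IV build. Complexes I, III, IV and V mix subunits made from mitochondrial DNA with subunits imported from the cytosol, whereas complex II is wholly nuclear encoded. Mitochondrial DNA is transcribed as long polycistronic RNA that is cut at the flanking tRNAs, and most of its messages carry short poly(A) tails. The nuclear subunit genes are scattered over the chromosomes, and many are known targets of the factors NRF1, the ETS family member GABP and YY1.

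The promoters of 4 nuclear encoded members show these motifs beside the expression data. Atp5k and Atp5j encode small subunits of ATP synthase and were lower in parotid than in submandibular epithelium, whereas Sdha and Sdhd encode the flavoprotein and a membrane anchor of complex II and did not pass the test there. Each line gives the 250 bases before the RefSeq gene start on build GRCm38.p6, 5′ to 3′ on the strand of the gene, with motif matches on either strand in capitals. The windows are chr5:108434400-108434649 (minus strand) for Atp5k, chr16:84834977-84835226 (minus strand) for Atp5j, chr13:74350241-74350490 (minus strand) for Sdha and chr9:50603850-50604099 (minus strand) for Sdhd.
Atp5k: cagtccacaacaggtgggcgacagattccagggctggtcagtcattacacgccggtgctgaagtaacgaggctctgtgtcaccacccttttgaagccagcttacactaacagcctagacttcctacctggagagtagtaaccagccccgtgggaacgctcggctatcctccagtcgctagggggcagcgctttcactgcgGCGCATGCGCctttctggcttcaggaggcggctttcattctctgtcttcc
Atp5j: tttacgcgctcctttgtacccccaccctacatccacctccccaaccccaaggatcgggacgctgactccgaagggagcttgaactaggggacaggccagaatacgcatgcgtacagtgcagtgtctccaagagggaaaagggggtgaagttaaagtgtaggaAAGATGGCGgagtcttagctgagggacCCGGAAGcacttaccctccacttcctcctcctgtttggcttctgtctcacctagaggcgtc
Sdha: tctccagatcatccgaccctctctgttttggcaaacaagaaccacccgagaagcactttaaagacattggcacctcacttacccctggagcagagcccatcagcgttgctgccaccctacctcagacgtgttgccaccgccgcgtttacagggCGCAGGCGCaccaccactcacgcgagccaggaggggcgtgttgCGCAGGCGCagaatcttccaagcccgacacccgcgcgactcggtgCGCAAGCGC
Sdhd: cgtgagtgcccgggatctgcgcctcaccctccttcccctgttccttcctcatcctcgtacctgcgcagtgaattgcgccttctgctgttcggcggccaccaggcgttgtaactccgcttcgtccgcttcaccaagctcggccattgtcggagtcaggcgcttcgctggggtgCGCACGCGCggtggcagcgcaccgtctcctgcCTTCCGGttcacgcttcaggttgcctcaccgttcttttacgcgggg
The capitals in Atp5k (overlapping matches) and Sdha (3 matches) are NRF1 letters, those in Atp5j YY1 and ETS letters, and those in Sdhd NRF1 and ETS letters. Atp5k also has an ETS match after the start, and a second RefSeq start of Atp5j has none of these letters before it.

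The NRF1 motif was searched as GCGCNTGCG, the ETS motif as CCGGAAG and the YY1 motif as AAGATGGCG, on both strands of the 300 bases from 250 before to 50 after the start. RefSeq promoters were matched for 68 of the 84 nuclear encoded members. NRF1 letters stood in 24 of them (35.3%), against 7.12% of the promoters of all 27025 genes. ETS letters stood in 17 (25%, against 9.93%) and YY1 letters in 7 (10.3%, against 1.64%). Of the 66 matched members that were tested, 9 of 24 with the NRF1 letters and 15 of 42 without them were lower in parotid than in submandibular epithelium. A match is a description of these letters and not of a factor's binding.

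Libraries held 16912258 to 27646844 gene counts. Markers fitted the labelled layers: all 20 genes of an epithelial list were higher in epithelium, and all 20 of a mesenchymal list were higher in mesenchyme, in both glands. Submandibular epithelium library 1 differed from the other 3 of its group, though the outlier criterion used below did not flag its summed mitochondrial level. That library had the highest summed level of mitochondrially encoded members of all 16 libraries. Its erythroid markers summed to 739 CPM (counts scaled to library size) against 7.70 to 152 CPM in the other 3. Parotid epithelium library 4 carried 495 CPM of erythroid markers against 59.7 to 119 CPM in its group. Results on epithelium are therefore also given without these 2 libraries, an alternative chosen after seeing the data. In these bulk samples, fewer cells of a type and less RNA per cell cannot be told apart.

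On average, submandibular epithelium had the most counted RNA from mitochondrial genes and parotid epithelium the least. The summed level of the 12 mitochondrially encoded members was 4686, 4223, 3553 and 4442 CPM in the 4 parotid epithelium libraries. It was 9359, 5488, 6868 and 6834 CPM in submandibular epithelium. It was 5799, 3997, 5189 and 4548 CPM in parotid mesenchyme and 6270, 5354, 6108 and 6120 CPM in submandibular mesenchyme. Every parotid epithelium library lay below every library of submandibular epithelium, and the mesenchymal groups overlapped each other. Submandibular epithelium also overlapped both mesenchymal groups, and parotid epithelium overlapped parotid mesenchyme. The 84 nuclear encoded members were ordered differently, by layer first. In epithelium their sums were 16835, 14786, 15533 and 15649 CPM for parotid and 19154, 17833, 17721 and 16109 CPM for submandibular gland. In mesenchyme they were 13226, 12476, 12446 and 12565 CPM for parotid and 12380, 12010, 13002 and 11755 CPM for submandibular gland. All epithelial libraries exceeded all mesenchymal ones, and the 2 glands overlapped within each layer.

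**Figure D1:**
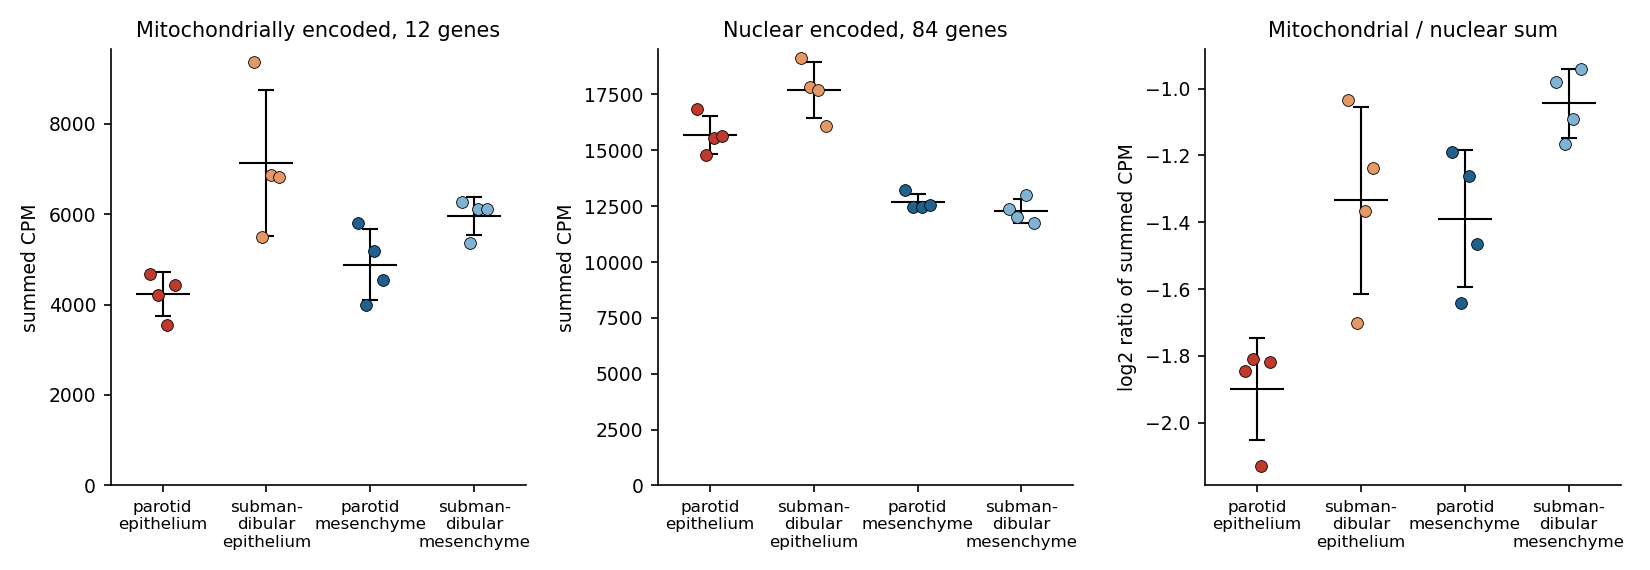
Summed CPM of the 12 mitochondrially encoded and the 84 nuclear encoded members and the log2 ratio of the 2 sums, 1 point per library in 4 groups of 4, with horizontal bars for the mean and error bars for the SD. Parotid epithelium has the lowest ratio in all 4 libraries, between -2.13 and -1.81, and submandibular mesenchyme the highest mean ratio at -1.04.

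The ratio of these sums describes the balance of the 2 genomes in counted RNA only. The mitochondrial sum holds few counts of mt-Co2, mt-Atp6, mt-Co3 and mt-Nd3. At least 97.99% of the 50-base windows of each of these genes also stand in annotated nuclear transcripts. That share was 51.1% for mt-Co1 and 62.2% for mt-Nd4. The percentages of the ratio therefore cannot be read as the balance of the RNA itself. The mitochondrial sum was 26.8% of the nuclear sum in parotid epithelium (geometric mean of 4 libraries, range 22.9 to 28.6%). It was 39.7% in submandibular epithelium (30.8 to 48.9%), 38.2% in parotid mesenchyme (32.04 to 43.8%) and 48.5% in submandibular mesenchyme (44.6 to 52.1%). Parotid epithelium did not overlap any other group. The 2 mesenchymal groups were separated by less than 1 percentage point between their nearest libraries, while submandibular epithelium overlapped both of them. On the log2 scale the parotid minus submandibular difference of the ratio was -0.57 in epithelium and -0.35 in mesenchyme, against a pooled SD between replicates of 0.20. This ratio does not depend on how libraries are scaled. With only mt-Nd1, mt-Nd6, mt-Cytb and mt-Atp8 in the mitochondrial sum, the epithelial difference was -0.48 and the groups still did not overlap, whereas the mesenchymal difference was -0.23 and the groups overlapped. The ratio is a score over members chosen with earlier results of these data known, so no test is given for it.

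Along the mitochondrial genome the measured levels fell into 2 classes. Per kilobase of exon, mt-Nd1 (subunit 1 of complex I) and mt-Cytb (the catalytic subunit of complex III) had the highest levels of all 96 members in every group. The length counts every annotated exon base of a gene. It is 4237 bases for Atp5b with a coding length of 1587, against 957 and 954 for mt-Nd1. This measure can thus lower nuclear members relative to mitochondrial ones, and ranks between them depend on it. In submandibular epithelium mt-Cytb averaged 2050 CPM per kb and mt-Nd1 2014 CPM per kb, which do not differ beyond their spread. mt-Co1, the catalytic subunit of complex IV, followed at 798 CPM per kb. Among the complex I subunits mt-Nd2, mt-Nd5, mt-Nd6 and mt-Nd4 the levels in that group were 421, 341, 323 and 291 CPM per kb, with ranges that overlapped. By this measure the highest nuclear encoded members there were Atp5a1 and Atp5b, at 510 and 468 CPM per kb. They encode the alpha and beta subunits of the catalytic head of ATP synthase. The other 5 mitochondrial members, mt-Co2, mt-Atp8, mt-Atp6, mt-Co3 and mt-Nd3, were measured at under 2 CPM per kb in every group on average.

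These 5 genes are neighbours on the mitochondrial genome (build GRCm38, chrM 7013 to 9806). Of the 50-base windows of mt-Co2, 100% stood letter for letter in an annotated nuclear transcript, and 99.5% of those of mt-Atp6, 99.9% of those of mt-Co3 and 97.99% of those of mt-Nd3 did. The share was 0.0% for mt-Nd1, mt-Nd6 and mt-Cytb, 8.19% for mt-Nd2, 7.61% for mt-Nd5, 51.1% for mt-Co1 and 62.2% for mt-Nd4. It was also 0.0% for mt-Atp8, where the annotated copies on chromosome 1 leave a gap between those of mt-Co2 and mt-Atp6. The largest block of such copies is a run of 7 unprocessed pseudogenes on chromosome 1 (24611535 to 24616197, minus strand). Several of these copies were counted at higher levels than the mitochondrial gene they match. Gm28437, the copy of mt-Co3, averaged 8.97 CPM in parotid epithelium, 12.8 CPM in parotid mesenchyme, 21.4 CPM in submandibular epithelium and 17.9 CPM in submandibular mesenchyme, where mt-Co3 itself averaged 0.496, 0.846, 1.46 and 1.39 CPM. The copy of mt-Nd4, Gm28439, stood far below its original at 0.358 CPM against 209 CPM in parotid epithelium. The 7 copies summed to 22.9 to 28.1 CPM in parotid epithelium and 47.8 to 77.9 CPM in submandibular epithelium. The read counter and how it treated reads with several positions were not stated in the labels or headers used here, so the counts of these 5 genes cannot be read as the level of their RNA. How much of the copies' counts came from mitochondrial RNA was not tested. mt-Nd4l, whose symbol would fit, was not in the normalized table and had 4 counts in all. mt-Nd6 lies on the opposite strand to the other members and overlaps mt-Nd5 only at positions 13552 to 13565. The library kit does not keep the strand, so reads from RNA of either strand over mt-Nd6 cannot be told apart.

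**Figure D2:**
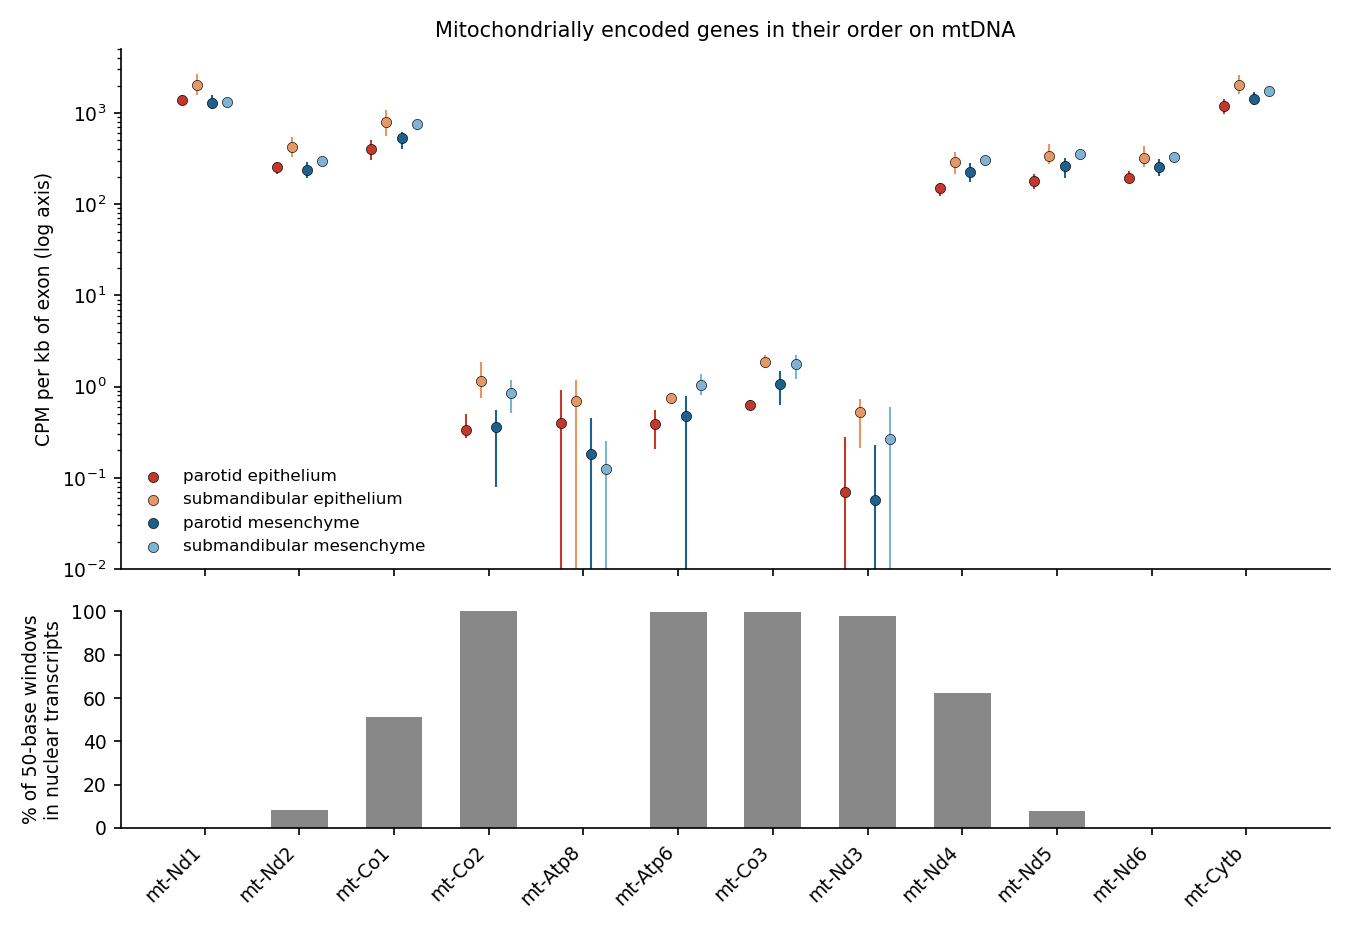
Upper panel: mean CPM per kb of exon (log axis) of the 12 mitochondrially encoded members in genome order, with vertical lines from the lowest to the highest of 4 libraries and lines that reach the axis where a library had no count. Lower panel: percent of each gene's 50-base windows found in annotated nuclear transcripts, which is 97.99% or more for 4 of the 5 genes measured at under 2 CPM per kb.

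Between the epithelia, mitochondrially encoded genes were lower in the parotid gland. Of the 10 that passed the filter on low counts, 9 were lower and 0 higher (edgeR quasi-likelihood test, adjusted p under 0.05 over 18191 genes) and the median log2 fold change was -0.93. The 10 include mt-Co2, mt-Co3 and mt-Atp6, whose counts cannot be read as the level of their RNA, as given above. Of these, mt-Co2 and mt-Co3 are among the 9. Over all genes tested, 9.72% were lower and 11.2% higher, with a median of -0.0016. An unadjusted p under 0.05 gave 0 higher, as did DESeq2 and limma-voom.

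The message for cytochrome b, mt-Cytb, was 1617, 1363, 1120 and 1393 CPM in the parotid and 2990, 1843, 2295 and 2252 CPM in the submandibular epithelial libraries (-0.77 ± 0.14 on the log2 scale, adjusted p = 0.000764, where ± gives the standard error here and beside later fold changes). mt-Nd1 was 1382, 1184, 1213 and 1496 CPM against 2539, 1515, 1859 and 1798 CPM (-0.55 ± 0.14 on the log2 scale, adjusted p = 0.0104). Both groups stayed apart in each gene. mt-Co1 was 783, 666, 468 and 589 CPM against 1684, 859, 1199 and 1192 CPM (-0.98 ± 0.19 on the log2 scale, adjusted p = 0.00171). mt-Nd4, a proton-pumping subunit of complex I, was 235, 215, 170.4 and 216 CPM against 516, 293, 404 and 392.2 CPM (-0.94 ± 0.16 on the log2 scale, adjusted p = 0.000460). In these genes too every parotid value lay below every submandibular one. The complex I subunits mt-Nd5, mt-Nd6 and mt-Nd2 were lower by log2 fold changes of -0.92 ± 0.18, -0.73 ± 0.17 and -0.70 ± 0.14. Of the complex IV genes with few counts, mt-Co3 and mt-Co2 had log2 fold changes of -1.54 ± 0.31 and -1.78 ± 0.47. mt-Atp6 did not pass (-0.95 ± 0.54, adjusted p = 0.234), and mt-Atp8 and mt-Nd3 had too few counts to be tested. The 2 mitochondrial rRNAs, which are no members, were also lower (mt-Rnr2, -0.67 ± 0.17, and mt-Rnr1, -0.59 ± 0.18). Without submandibular epithelium library 1 the count of lower members was 7, with mt-Nd1 and mt-Co2 lost, and without both libraries named above it was 8, with mt-Co2 lost.

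Nuclear encoded members were also mostly lower in parotid epithelium, by smaller amounts. Of the 81 tested, 34 were lower and 1 was higher, with a median log2 fold change of -0.23 and a middle range of -0.35 to -0.10. By complex, assigned by symbol, the calls were as follows. In complex I, 13 of 30 accessory subunits were lower and 0 of 7 core subunits (2 at an unadjusted p under 0.05, 0 with DESeq2 and 0 with limma-voom). In complex II 0 of 4 passed (1 at an unadjusted p, 0 with either other tool). In complex III 4 of 8 were lower, in complex IV 9 of 15 were lower and 1 higher, and in complex V 8 of 17 were lower. The difference between complexes was not tested.

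Of the accessory subunits of complex I, Ndufb3 was 73.0, 64.3, 68.1 and 69.6 CPM in parotid against 119.6, 90.2, 94.2 and 84.9 CPM in submandibular epithelium (-0.50 ± 0.10 on the log2 scale, adjusted p = 0.00193). Ndufa5, of the peripheral arm, was lower (-0.48 ± 0.10), as was Ndufs6, a zinc-binding subunit needed late in assembly (-0.44 ± 0.10). In complex III the small subunit Uqcrq was lower (-0.35 ± 0.09), as was the core protein Uqcrc2 (-0.29 ± 0.09). In complex IV, Cox7a2l, which helps join complexes III and IV, was lower (-0.42 ± 0.10), as were Cox8a (-0.38 ± 0.09) and Cox6b1 (-0.35 ± 0.09). In complex V, Atp5k, whose promoter is printed above, was 131, 103, 113 and 111 CPM against 169, 144, 146 and 140.1 CPM (-0.39 ± 0.09 on the log2 scale, adjusted p = 0.00519). Every parotid value of Atp5k lay below every submandibular one. The membrane subunits Atp5g2 (part of the rotating c-ring), Atp5mpl and Atp5l were lower, with log2 fold changes of -0.45 ± 0.12, -0.42 ± 0.09 and -0.41 ± 0.10. Of the windows of Atp5l, 84.8% stand in transcripts of other genes, and of Atp5g2 38.3%. That share was 24.2% for Uqcrc2 and 17.8% for Cox7a2l. The counts of these members may be split with those other genes. The alpha and beta subunits of the F1 head, Atp5a1 and Atp5b, had log2 fold changes of -0.03 ± 0.07 and -0.02 ± 0.06 and did not pass.

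The count of nuclear members rested in part on single libraries. It was 17 called without submandibular epithelium library 1 and 6 (5 lower) without that library and parotid epithelium library 4. The median log2 fold change was then -0.14 in both cases.

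**Figure D3:**
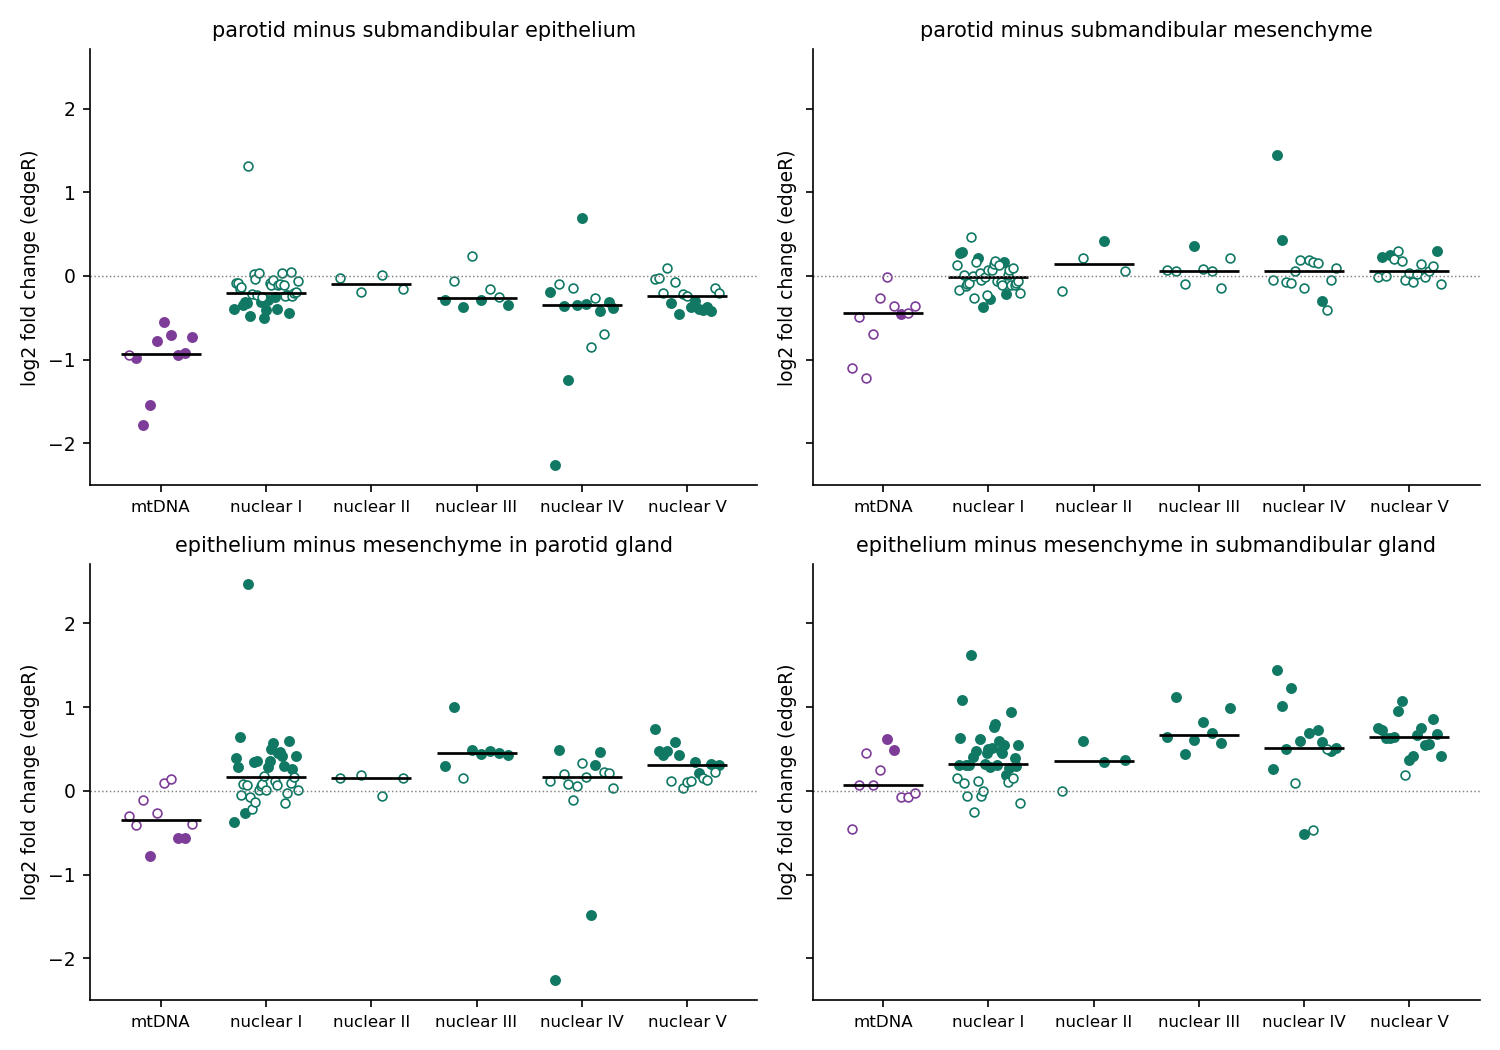
Log2 fold change of each tested member in the 4 comparisons, for the 10 mitochondrially encoded members (mtDNA) and the 81 nuclear encoded members by complex, with filled points for an adjusted p under 0.05 and bars for the median of each set. The mitochondrial medians (-0.93, -0.44, -0.35 and 0.07) lie below the nuclear ones (-0.23, 0.03, 0.21 and 0.50) in all 4 panels, which share libraries pairwise. The mitochondrial medians include mt-Co2, mt-Co3 and mt-Atp6, whose counts cannot be read as the level of their RNA. Medians without these genes were not computed.

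The nuclear encoded members that were lower in parotid epithelium were mostly short genes. Of the 41 with a coding length of at most 408 bases, the median of those tested, 27 were lower and 1 was higher, with a median log2 fold change of -0.35. Of the 40 longer ones, 7 were lower, with a median of -0.15. Spearman's rho between coding length and log2 fold change was 0.53 over these 81 genes, which share the same 8 libraries. The same split was made over all genes. Of 758 protein coding genes of at most 408 bases, members included, 172 were lower and 36 higher (median -0.18), whereas the 13953 longer ones had a median of 0.05. Of 96 genes of the cytosolic ribosome 47 were lower and 4 higher (median -0.34). In mesenchyme rho was -0.08 among the members, with medians of 0.06 for short and 0.03 for long ones. The part of gene length in the epithelial difference was not tested.

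**Figure D4:**
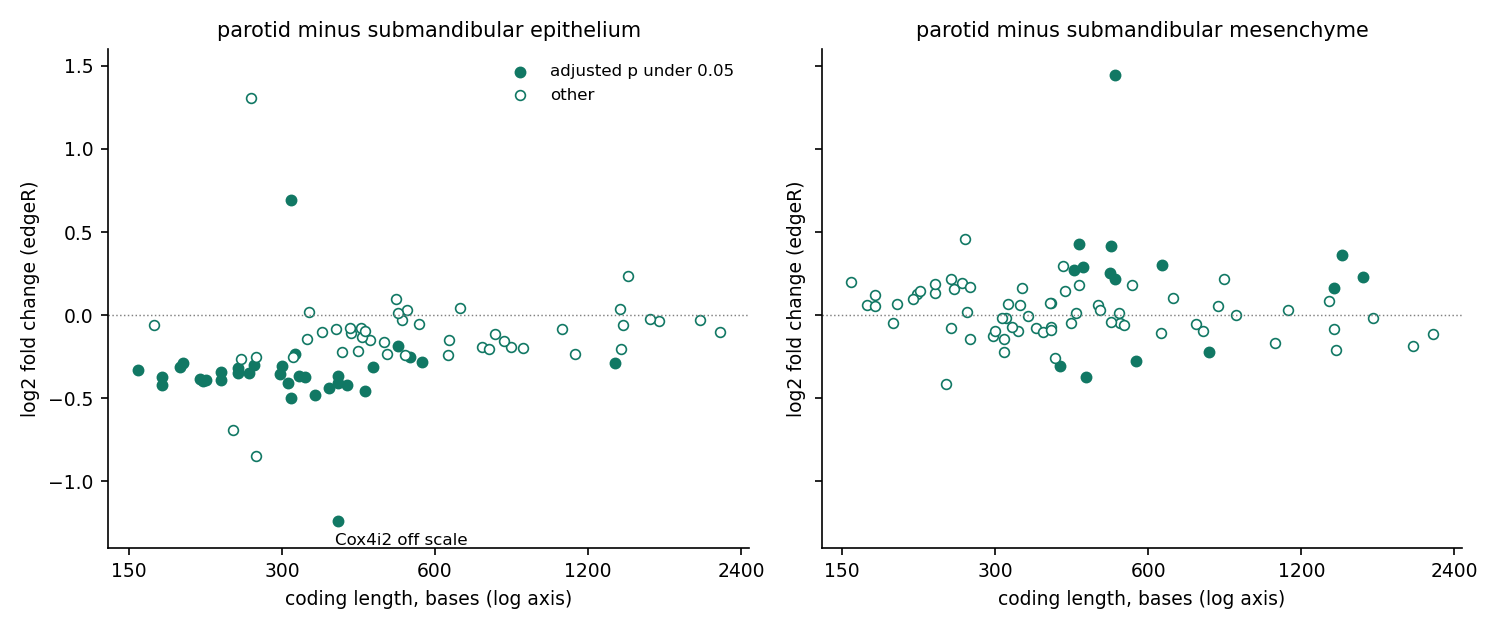
Log2 fold change of the 81 nuclear encoded members against coding length (log axis) in epithelium (left) and mesenchyme (right), with filled points for an adjusted p under 0.05. In epithelium the filled points crowd at short lengths (27 of 41 lower at up to 408 bases, 7 of 40 lower above), and Cox4i2 lies off the scale at -2.26.

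Markers of other cells moved with the same groups. Between the epithelia 11.2% of all genes were higher and 9.72% lower in parotid. In epithelium 9 of 12 macrophage and leukocyte markers were higher in parotid. Their sum was 23.6 to 35.2 CPM in parotid and 3.63 to 13.8 CPM in submandibular libraries. Of 12 endothelial markers 6 were higher and 1 lower, with sums of 4.75 to 17.2 CPM and 4.30 to 8.25 CPM. Of 20 mesenchymal markers 9 were higher, with sums of 390 to 698 CPM and 174 to 554 CPM. Of 9 tested erythroid markers 0 passed edgeR's test (1 higher and 1 lower at an unadjusted p under 0.05, 1 higher with DESeq2, 0 with limma-voom), and their sums overlapped. Their part in the differences of the respiratory chain was not tested.

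Between the mesenchymes of the glands few of these genes passed, and the direction for nuclear encoded members depended on scaling. All 10 tested mitochondrial members had lower fitted levels in parotid mesenchyme (median -0.44), and 1 passed, the complex I subunit mt-Nd4. Its values were 389.9, 242, 317 and 289.9 CPM in parotid and 447, 387, 419 and 441 CPM in submandibular mesenchyme (-0.45 ± 0.16 on the log2 scale, adjusted p = 0.0322). The highest parotid value of mt-Nd4 exceeded the lowest submandibular one. Of its 50-base windows 62.2% stand in an annotated nuclear transcript. The 10 include mt-Co2, mt-Co3 and mt-Atp6, whose counts cannot be read as the level of their RNA. At an unadjusted p under 0.05 there were 6 lower members, and other settings gave 0 to 6. Of 81 nuclear members 11 were higher and 4 lower, with a median of 0.03, where all genes gave 20.8% higher and 13.7% lower with a median of 0.04. With upper quartile scaling the split was 3 higher and 9 lower, and that of all genes went from 60.3% higher to 46.2% higher among the called. That scaling moved the median of all genes to -0.07.

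Of the nuclear members called in mesenchyme and followed through the alternatives, 3 kept their call in all 27. Sdhc, a membrane anchor of complex II, was 153, 160.3, 149.8 and 159 CPM in parotid and 114, 121, 113 and 117 CPM in submandibular mesenchyme (0.42 ± 0.08 on the log2 scale, adjusted p = 0.000376). Cox5a, a matrix-facing subunit of complex IV, was 71.4, 57.9, 59.0 and 59.2 CPM against 44.3, 43.6, 48.4 and 47.6 CPM (0.43 ± 0.08 on the log2 scale, adjusted p = 0.000644). In both genes the groups did not overlap. The complex I subunit Ndufb11 was lower in parotid mesenchyme (-0.37 ± 0.10). Skeletal muscle markers (10 of 11 higher, sums of 370 to 1542 CPM in parotid and 167 to 357 CPM in submandibular mesenchyme) and smooth muscle and pericyte markers (9 of 11 higher, 581 to 794 CPM and 217 to 254 CPM) were higher in parotid mesenchyme. Of 10 neuronal markers 5 were higher and 2 lower, and their sums were 1411 to 2406 CPM in parotid and 112 to 254 CPM in submandibular mesenchyme. Of 9 tested erythroid markers 1 was lower, and their sums were 1454 to 2194 CPM in parotid and 3333 to 4185 CPM in submandibular mesenchyme, without overlap. Among all genes 20.8% were higher and 13.7% lower in parotid mesenchyme. The part of these markers in the differences of the respiratory chain between the mesenchymes was not tested.

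Epithelium had more RNA of nuclear encoded respiratory chain genes than mesenchyme in both glands, whereas few mitochondrial genes passed the test. In the submandibular gland 65 of 81 nuclear members were higher in epithelium and 1 was lower, with a median log2 fold change of 0.50. Among all genes 33.3% were higher and 33.7% lower. The comparisons of the layers share libraries with those of the glands. In the parotid gland 37 were higher and 4 lower, with a median of 0.21, where all genes gave 31.4% higher and 33.5% lower. The 96 genes of the cytosolic ribosome, which are no members, went the same way. Of these, 87 were higher and 4 lower in submandibular epithelium (median 0.94), and 80 higher and 4 lower in parotid epithelium (median 0.58). Complex III was higher almost throughout, in 8 of 8 members in the submandibular and 7 of 8 in the parotid gland. Complex V was higher in 16 of 17 and 10 of 17, complex IV in 11 and 3 of 15, complex I in 27 and 17 of 37, and complex II in 3 and 0 of 4. Complex IV also had 1 member lower in the submandibular and 2 in the parotid gland, and complex I had 2 lower in the parotid gland. In the parotid gland the share of complex IV members that were higher, 20%, lay below the 31.4% of all genes. For complex II in the parotid gland 1 member was higher at an unadjusted p under 0.05, and 0 with DESeq2 or limma-voom.

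Uqcr11, a small subunit of complex III, had the largest log2 fold change in each gland among members averaging at least 10 CPM in both layers. It was 219, 156, 206 and 176 CPM in epithelium against 102, 92.1, 96.6 and 87.8 CPM in mesenchyme of the parotid gland (1.00 ± 0.10 on the log2 scale, adjusted p = 1.34e-07). In the submandibular gland it was 214, 204, 195 and 176 CPM in epithelium and 92.8, 88.3, 96.3 and 85.9 CPM in mesenchyme (1.12 ± 0.10 on the log2 scale, adjusted p = 3.13e-08). Epithelial libraries were thus at about 2 times the mesenchymal level, and the glands overlapped within each layer. Atp5a1 rose by 0.74 ± 0.07 in the parotid and 0.76 ± 0.07 in the submandibular gland. Its partner Atp5b rose by 0.47 ± 0.06 and 0.72 ± 0.06. The complex I subunit Ndufa12 rose by 0.64 ± 0.10 and 1.08 ± 0.10, and Ndufs6 by 0.60 ± 0.10 and 0.94 ± 0.10. Of the 50-base windows of Ndufa12 26.2% stand in transcripts of another gene, and of Uqcr11 10.9%. The c-ring genes Atp5g1 and Atp5g2 rose by 0.95 ± 0.12 and 1.07 ± 0.12 in the submandibular gland, and the third gene for the same protein, Atp5g3, did not pass in either gland (0.03 ± 0.13 and 0.19 ± 0.13). Ndufa1, a small complex I subunit, went against the others in the parotid gland with -0.38 ± 0.10, as did Ndufa3 with -0.27 ± 0.10.

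Of the 10 tested mitochondrial members, 3 were lower in parotid epithelium than in parotid mesenchyme, namely mt-Nd4 (-0.57 ± 0.16), mt-Nd5 (-0.56 ± 0.18) and mt-Co3 (-0.78 ± 0.31). The few counts of mt-Co3 cannot be read as the level of its RNA, nor can those of mt-Co2 and mt-Atp6, which are among the 10. None was higher (0 at an unadjusted p under 0.05, 0 with DESeq2 and 0 with limma-voom). In the submandibular gland mt-Nd1 (0.62 ± 0.14) and mt-Nd2 (0.49 ± 0.14) were higher in epithelium and 0 were lower (0 at an unadjusted p, 0 with either other tool). The median was -0.35 in the parotid and 0.07 in the submandibular gland, where it was -0.08 without submandibular epithelium library 1 and parotid epithelium library 4. mt-Nd1 in mesenchyme was 1493, 1059, 1268 and 1134 CPM in the parotid and 1315, 1127, 1342 and 1224 CPM in the submandibular gland, which overlapped. Without the same 2 libraries, mt-Nd2 lost its call (adjusted p = 0.0883). Blood and vessel markers also separated the layers: all 12 endothelial markers were lower in epithelium of both glands, and erythroid markers summed to 1454 to 4185 CPM in mesenchyme. Their part in the layer differences was not tested.

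Whether the gland difference itself depended on the layer was tested with an interaction term. Of the nuclear members 21 were lower and 1 higher in the parotid minus submandibular difference of epithelium relative to that of mesenchyme, with a median of -0.25. Among all genes 12.2% were lower and 8.67% higher. Of 96 genes of the cytosolic ribosome 21 were lower and 2 higher, with a median of -0.33. For the mitochondrial members 0 of 10 passed, with 3 lower at an unadjusted p under 0.05 and 0 with DESeq2 or limma-voom. Leaving out submandibular epithelium library 2 gave 3 lower, and leaving out parotid epithelium library 1 gave 1 lower. Those with the lowest adjusted p were mt-Nd1 (-0.53 ± 0.19 on the log2 scale, adjusted p = 0.0636) and mt-Cytb (-0.51 ± 0.19 on the log2 scale, adjusted p = 0.0717). Among nuclear members Uqcrq had -0.56 ± 0.12, Atp5k -0.54 ± 0.13 and Cox5a -0.53 ± 0.12. Cox5a was higher in parotid mesenchyme, as given above, and did not pass in epithelium (-0.10 ± 0.08). Without the 2 epithelial libraries named above, 6 nuclear members passed (5 lower), with a median of -0.12, and under upper quartile scaling 14 did (13 lower).

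Several subunits come as a common form and a tissue-specific or conditional one. Cox4i2, the isoform of the regulatory subunit 4 known for low-oxygen conditions, had the largest interaction of all 91 tested members. It was 0.382, 0.610, 0.518 and 0.626 CPM in the parotid and 2.80, 1.77, 4.40 and 1.39 CPM in the submandibular epithelial libraries. In mesenchyme it was 3.22, 2.41, 2.72 and 1.96 CPM in the parotid and 0.970, 0.649, 0.155 and 2.01 CPM in the submandibular gland. The order of the glands was thus opposite in the 2 layers: parotid was lower in epithelium (-2.26 ± 0.52 on the log2 scale, adjusted p = 0.00561) and higher in mesenchyme (1.45 ± 0.50 on the log2 scale, adjusted p = 0.0315), with an interaction of -3.71 ± 0.72. The mesenchymal groups overlapped, and that call was lost in 9 of 27 alternatives. The common form Cox4i1 was 275 to 283 CPM in parotid and 306 to 333 CPM in submandibular epithelium (-0.19 ± 0.06), also without overlap, but that call too was lost in 9 of 27 alternatives.

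Cox6b2, known as a testis form of subunit 6b, was the 1 nuclear member that passed edgeR's test as higher in parotid epithelium (2 members were higher at an unadjusted p under 0.05, 2 with DESeq2 and 2 with limma-voom). It was 15.7, 17.03, 17.5 and 14.8 CPM in parotid against 9.53, 8.79, 11.3 and 10.7 CPM in submandibular epithelium (0.69 ± 0.15 on the log2 scale, adjusted p = 0.00379). The groups did not overlap, and the call held in all 27 alternatives. In mesenchyme it was 12.02, 9.97, 13.9 and 15.9 CPM in the parotid and 14.9, 14.5, 12.03 and 15.9 CPM in the submandibular gland, which overlapped. The common form Cox6b1 moved the other way in epithelium, as given above. Ndufa4l2, a relative of Ndufa4 known to be induced by low oxygen, was 3.99, 15.9, 7.12 and 11.03 CPM in parotid against 1.44, 1.98, 7.48 and 4.55 CPM in submandibular epithelium. These groups overlapped, and the difference (1.31 ± 0.48) missed edgeR's threshold (adjusted p = 0.0642) but passed with DESeq2 (adjusted p = 0.0307) and limma-voom (adjusted p = 0.0290). Its levels in mesenchyme were 1.88, 1.81, 1.34 and 1.82 CPM in the parotid and 1.02, 0.949, 2.27 and 0.708 CPM in the submandibular gland, and it was higher in epithelium of the parotid (2.47 ± 0.51) and, with overlapping groups, of the submandibular gland (1.62 ± 0.52).

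The forms known from heart and skeletal muscle had few counts. Cox7a1 was 0.0424, 0.0938, 0.424 and 0.289 CPM in epithelium against 0.268, 0.438, 0.671 and 0.980 CPM in mesenchyme of the parotid gland (-1.48 ± 0.61 on the log2 scale, adjusted p = 0.0435), a call lost in 12 of 25 alternatives. Cox6a2 and Cox8b, which were not tested, averaged 0.883 and 0.230 CPM in parotid mesenchyme, the group with the most skeletal muscle marker RNA, and at most 0.244 CPM in the other groups. The testis form Cox7b2, also not tested, averaged 0.320 CPM in parotid mesenchyme and at most 0.117 CPM in the other groups. Cox7b, the common form, varied widely within groups, with 296, 182, 174 and 227 CPM in parotid against 339, 510.4, 348 and 221 CPM in submandibular epithelium. It did not pass in any comparison.

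**Figure D5:**
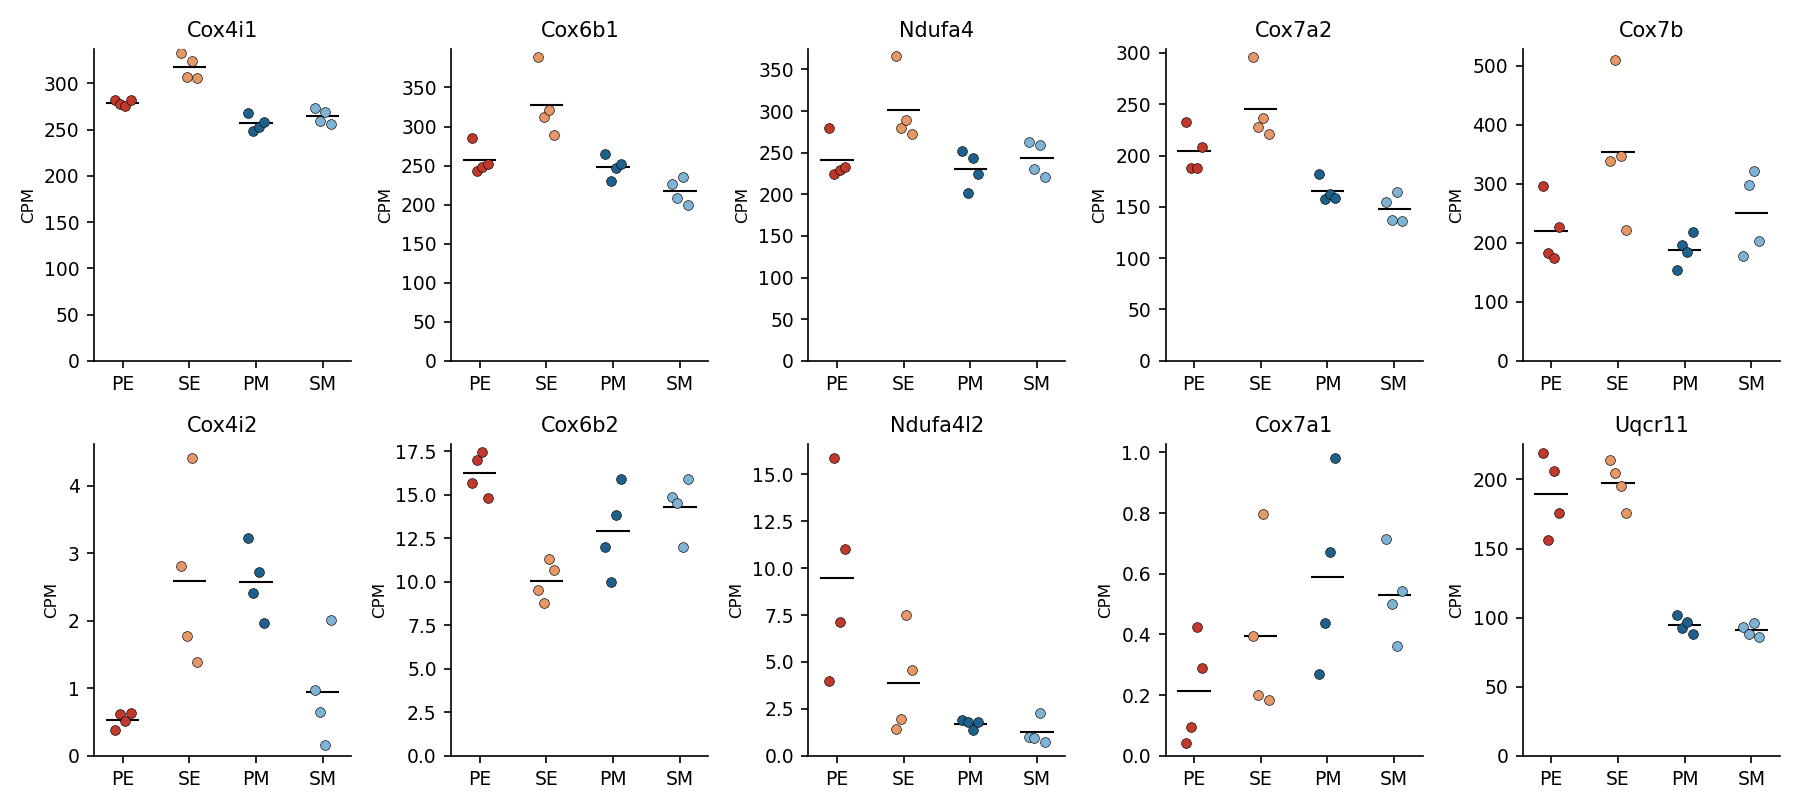
CPM of 9 isoform genes and of Uqcr11 per library, with bars for the mean of 4 libraries (PE and SE, parotid and submandibular epithelium; PM and SM, parotid and submandibular mesenchyme; each axis starts at 0). Cox4i2 is low in PE (0.382 to 0.626 CPM) and Cox6b2 high (14.8 to 17.5 CPM), while Uqcr11 separates the layers in both glands.

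Complex II, the wholly nuclear complex, had no member that passed between the epithelia. Sdha was 405, 344, 374 and 369 CPM in parotid against 387, 411, 385 and 337 CPM in submandibular epithelium (-0.03 ± 0.07 on the log2 scale, adjusted p = 0.839). Sdhb, the iron-sulfur subunit, was 232 to 318 CPM and 273 to 337 CPM (-0.19 ± 0.09 on the log2 scale, adjusted p = 0.128), and Sdhd was 178 to 231 CPM and 201 to 261 CPM (-0.16 ± 0.09 on the log2 scale, adjusted p = 0.233). All 3 overlapped between the glands, as did Sdhc (0.01 ± 0.08). In the submandibular gland Sdhb was higher in epithelium (0.60 ± 0.09), as were Sdhc and Sdhd, and Sdha did not pass (-0.0040 ± 0.07).

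Genes that serve the chain were counted in the same comparison of the epithelia, in which 9.72% of all genes were lower and 11.2% higher. Of 43 tested assembly factors 7 were lower in parotid epithelium and 0 higher with edgeR (1 higher at an unadjusted p under 0.05 and with DESeq2, 0 with limma-voom), among them Sdhaf4 (-0.60 ± 0.14), a complex II assembly factor. Of 77 genes of the mitochondrial ribosome 14 were lower and 0 higher with edgeR (1 higher at an unadjusted p under 0.05, 0 with DESeq2 or limma-voom). Of 17 genes of mitochondrial DNA transcription and replication 1 was higher, the mitochondrial RNA polymerase Polrmt (0.52 ± 0.14), and of 26 genes of mitochondrial RNA processing 2 were higher and 1 lower, Slirp (-0.50 ± 0.12), which stabilizes mitochondrial messages together with Lrpprc. Of 13 nuclear regulators of mitochondrial biogenesis 3 were higher, among them Myc (0.94 ± 0.19) and the PGC-1 related coactivator Pprc1 (0.63 ± 0.17). Of 20 glycolytic genes 13 were higher in parotid epithelium and 0 lower with edgeR (0 at an unadjusted p under 0.05, 0 with DESeq2 or limma-voom), with a median of 0.57, for example Pfkl (0.98 ± 0.15), a phosphofructokinase, and the lactate exporter Slc16a3 (1.32 ± 0.26). Glycolytic genes were also higher in parotid mesenchyme (13 higher and 2 lower, median 0.47), where 20.8% of all genes were higher and 13.7% lower. Against mesenchyme they were higher in the epithelium of the parotid gland (16 higher and 4 lower, median 1.28, all genes 31.4% and 33.5%). The same held in the submandibular gland (15 higher and 4 lower, median 1.33, all genes 33.3% and 33.7%). Between the epithelia, 1 of 17 genes of the tricarboxylic acid cycle was higher and 1 lower.

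Between the layers of the submandibular gland, 33.3% of all genes were higher and 33.7% lower in epithelium. There 68 of 77 genes of the mitochondrial ribosome were higher and 0 lower with edgeR (0 at an unadjusted p under 0.05, 0 with DESeq2 or limma-voom), as were 21 of 43 assembly factors, with 4 lower. Of 17 genes of mitochondrial DNA transcription and replication 11 were higher and 3 lower, with the helicase Twnk at 1.31 ± 0.12. Of 13 regulators 10 were higher and 2 lower, with Ppargc1a, a coactivator of mitochondrial biogenesis, at 1.66 ± 0.31 (7.99 against 2.503 CPM). Ucp2, an inner membrane carrier, differed between glands in both layers (0.97 ± 0.25 in epithelium and 1.25 ± 0.26 in mesenchyme, higher in parotid).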

How the data were processed

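The authors deposited raw gene counts and normalized values for 16 libraries made with a full-length cDNA kit that does not mark strand. Reads were aligned to GRCm38 (mm10) with STAR 2.5.2a and normalized with edgeR, per the submitters' processing notes; neither labels nor headers name the read counter or its annotation. The deposited normalized signal is CPM scaled by TMM and chose the members by symbol. Spike-in features (92) were left out. Counts were filtered by filterByExpr, scaled by TMM and fitted with edgeR 4.0.16 (R 4.3.3) as a robust quasi-likelihood model over all 16 libraries with 5 contrasts; p-values were Benjamini-Hochberg adjusted over 18191 genes, with a threshold of 0.05. CPM in the text were computed from the counts; ± beside a log2 fold change is its SE. DESeq2 1.42.0 and limma-voom (limma 3.58.1), other scalings, filters, a replicate block and left-out libraries were tried as alternatives. The fit was tested on simulated counts. Named genes were those among the called members with the largest changes (at most 8 per direction and comparison, averaging at least 10 CPM in the higher group), fixed members (all mitochondrial, complex II and isoform genes), and at most 4 per other list; further members are named for their role or as examples. The members and lists were chosen with earlier results of these data known. Lengths, coordinates and shared 50-base windows come from GENCODE M21 (GRCm38) and promoters from RefSeq (GRCm38.p6). P-values measure the spread between these libraries.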

Additional observations from a re-analysis of the deposited data

Results flagged for a closer look

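In 13 of 244 groups of 4 libraries examined, 1 library stood apart from the other 3 by Dixon's criterion, which chance meets in about 1 in 20 groups. In parotid epithelium the log2 ratio of mitochondrial to nuclear sum was -2.13 in library 3 against -1.85 to -1.81 in the others. There 1 library each had high values for Ndufa4 (280 CPM against 224 to 233), mt-Co2 (0.339 against 0.188 to 0.193) and mt-Co3 (0.563 against 0.466 to 0.482). In parotid mesenchyme the summed nuclear encoded level was 13226 CPM in library 1 against 12446 to 12565 in the others. Single libraries there also stood apart for Atp5d (189 CPM against 165 to 168), Cox5a (71.4 against 57.9 to 59.2), Ndufa11 (150.2 against 128 to 129), Ndufb7 (92.2 against 82.2 to 83.7) and Ndufa4l2 (1.34 against 1.81 to 1.88). In submandibular epithelium they did for Ndufb8 (201 CPM against 220 to 222) and Uqcrc1 (291 against 368 to 384), and in submandibular mesenchyme for Atp5g3 (254 CPM against 195 to 202).

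For 22 nuclear encoded members the gland difference in epithelium differed from that in mesenchyme by edgeR's interaction test. The interaction, on the log2 scale, was -3.71 for Cox4i2 and 0.84 for Cox6b2. In complex V it was -0.25 for Atp5b, -0.53 for Atp5e, -0.64 for Atp5g2, -0.54 for Atp5k, -0.54 for Atp5mpl and -0.45 for Atp5o. In complex IV it was -0.53 for Cox5a, -0.54 for Cox6b1, -0.53 for Cox6c, -0.42 for Cox7a2 and -0.48 for Cox8a. In complex I it was -0.53 for Ndufa1, -0.44 for Ndufa12, -0.48 for Ndufa5, -0.48 for Ndufb4 and -0.53 for Ndufc1. In complexes II and III it was -0.41 for Sdhb, -0.41 for Sdhc, -0.38 for Uqcrc2 and -0.56 for Uqcrq.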

How the results depend on the processing

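Of the single genes followed through the alternatives (Atp5j, Cox5b-ps, some other members and the named genes outside the chain were not), none that passed its test changed sign, but the split of nuclear members between the mesenchymes went from 11 higher and 4 lower to 3 and 9 with upper quartile scaling, and the submandibular layer median of mitochondrial members from 0.07 to -0.08 without 2 epithelial libraries. Of the values for single genes, 3352 kept their side of the threshold and 403 lost it; of the counts and ratios, 457 moved little and 45 more than that. Between the epithelia, leaving out single libraries gave 2452 to 4540 called genes (3801 in the report) and 17 to 47 nuclear members (35), with 17 without submandibular epithelium library 1, 20 without parotid epithelium library 2 and 23 without library 3 or 4. Without submandibular epithelium library 1 and parotid epithelium library 4, an alternative chosen after seeing the data, 1846 genes and 6 nuclear members were called. Nuclear members numbered 23 with no filter and 20 with only the 8 libraries compared.

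Between the mesenchymes the 1 called mitochondrial member became 2 with RLE scaling, 6 with upper quartile scaling, 4 with library sizes without mitochondrial genes, 4 with TMM on totals before the filter (added after seeing the data), 4 with DESeq2, 3 with limma-voom, 0 with no filter, 4 with the 1 CPM filter, 6 with only the 8 libraries and 6 without the 2 epithelial libraries. Leaving out single libraries gave 0 to 5; it was 0 without parotid mesenchyme library 2 or submandibular mesenchyme library 1, 3 or 4. Nuclear members there numbered 9 with no filter and 5 to 20 with a library left out (5 without submandibular mesenchyme library 1, 9 without parotid mesenchyme library 1).

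In the parotid layer comparison mitochondrial calls were 5 with RLE scaling, 5 with DESeq2 and 2 to 5 with a library left out, against 3. In the submandibular one they were 1 without the 2 epithelial libraries, against 2. The interaction gave 0 to 3 mitochondrial members with a library left out, and 14 nuclear members with upper quartile scaling, 13 with no filter, 14 with TMM on totals before the filter and 6 without the 2 epithelial libraries, against 22. The cause of these shifts was not tested.

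The replicate numbers did not pair the samples throughout: in no comparison did all 4 same-numbered pairs correlate above 0.1, and not every library correlated best with its own number. Some pairs did stand out. Between the submandibular layers, numbers 1 and 2 correlated at 0.26 each, against at most 0.02 and -0.03 with another number. Between the epithelia, number 1 correlated at 0.20 against at most 0.04. Whether some libraries were paired cannot be told from these values. With the replicate block 5 mitochondrial members were called between the mesenchymes, 2 in the interaction and 9 between the epithelia, where 40 nuclear members were.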
